A study of Homo sapiens with 6 samples.

Results

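The inhibitors of cyclin-dependent kinases (CDKs) of the INK4 and CIP/KIP families, with CDKN3, were followed through a stepwise model of human fibroblast transformation. The set was fixed as a list of 8 gene symbols, CDKN1A, CDKN1B, CDKN1C, CDKN2A, CDKN2B, CDKN2C, CDKN2D and CDKN3, and each gene was read by its probe set with a single symbol and the highest mean signal. Of these 8 genes, 7 were measured, each by 1 probe set, among 18417 genes compared, and CDKN2C (p18INK4C) is not analysed here. Total RNA was hybridised to 6 Affymetrix Gene 1.0 ST arrays, 2 biological replicates for each of 3 cell lines. BJELM cells, the transformed step, were made from BJEL cells with a retrovirus carrying MYC fused to an estrogen receptor domain (MYC-ER), and were grown with G-418, hygromycin, puromycin and, continuously, 4-hydroxytamoxifen. BJEL cells, the immortalized pre-transformed step, carry hTERT, the catalytic component of telomerase, and the early region of SV40, and were grown with G-418 and hygromycin. BJ cells are normal primary foreskin fibroblasts grown without these additions. BJELM cells therefore also carry hTERT and the SV40 early region, and the drugs cannot be told apart from the introduced genes. Each step is a single line, and the labels do not say whether replicates were separate cultures, so the p-values measure the spread between these arrays.

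CDK inhibitors slow the cell cycle by binding the kinases that drive it. The INK4 proteins p16, p15, p18 and p19 bind CDK4 and CDK6 and keep them from pairing with D-type cyclins, so that the retinoblastoma protein (RB) keeps E2F factors bound. The CIP/KIP proteins p21, p27 and p57 bind cyclin and CDK together, above all cyclin E and cyclin A with CDK2. CDKN3, also called KAP, belongs to neither family: it is a phosphatase that removes an activating phosphate from CDK2. In fibroblasts p16 and p21 are best known from replicative senescence. SV40 large T antigen binds RB and p53, and p53 is an activator of CDKN1A transcription.

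The deposited values were log2 probe set signals. Array medians lay between 6.37 and 6.46, and the Pearson correlation across genes, which are not independent replicates, was 0.992 to 0.995 within a cell line and 0.943 to 0.981 between lines. The arrays carried fibroblast transcripts, with per-array medians of 12 fibroblast markers between 10.04 and 11.75, of which 8 fell in BJELM and 6 fell in BJEL against BJ, whereas the medians of the epithelial, endothelial, leukocyte and melanocyte lists lay between 4.95 and 5.84 on every array. Single members of these lists stood higher, such as CD68 at 10.27 and 10.29 in BJELM against 11.24 and 11.41 in BJ. The part of the fall of fibroblast markers in the results below was not tested. TERT stood at 10.84 and 10.78 in BJELM and at 10.71 and 10.97 in BJEL, against 7.77 and 7.88 in BJ. MYC stood at 9.57 and 8.90 on the arrays labelled BJELM, against 10.22 and 10.12 in BJEL and 9.47 and 9.61 in BJ, so the MYC signal went against the label, and a direction given below for BJELM is a difference of the arrays so labelled. The expression ratios that the paper prints for MYC were also above BJ in BJEL and below BJ in BJELM. Whether the MYC probe set reads the MYC-ER transcript in full, and whether labels were crossed, was not tested. The study checked the introduced genes by Western blotting and RT-qPCR as well. By Western blotting it reports T antigen overexpressed at the immortalized step and MYC-ER at the transformed step. Those data are not analysed here. In bulk RNA, fewer cells with a transcript and less of it per cell cannot be told apart.

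In the following, a gene rose or fell where limma gave an adjusted p under 0.05 over the 18417 genes and a change of at least 2-fold, and errors of changes are standard errors on the log2 scale. On that rule 2 of the 7 measured genes of the list moved, and in opposite directions: CDKN1A fell and CDKN2A rose. In BJELM against BJ 1 of 7 rose and 1 of 7 fell, where 4.09% of all genes rose and 4.7% fell, 8.79% together. In BJEL against BJ the counts were likewise 1 and 1, where 2.89% of all genes rose and 2.29% fell, 5.18% together. In BJELM against BJEL 0 of 7 were called by limma, where 0.923% of all genes rose and 1.76% fell, 2.68% together, although 3 of 7 had an unadjusted p under 0.05, as had 25.4% of all genes. The 2 comparisons with BJ share the BJ arrays.

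In BJEL against BJ, CDKN1B and CDKN2B passed on the adjusted p but differed by less than 2-fold. Without a fold minimum the counts were 2 of 7 in BJELM against BJ (28.2% of all genes), 4 of 7 in BJEL against BJ (17.5%) and 0 of 7 in BJELM against BJEL (10.8%). With the replicate number as a block the counts were 5 of 7 (39.6% of all genes), 5 of 7 (31.5%) and 2 of 7 (24.3%). In BJELM against BJ the block added CDKN1B, CDKN2B and CDKN2D (limma adjusted p = 0.0135, 0.0426 and 0.0376). It added CDKN3 in BJEL against BJ, and CDKN1A and CDKN3 in BJELM against BJEL. Of these only CDKN1A reached 2-fold. The median change over the 7 genes was 0.10 in BJELM against BJ, 0.53 in BJEL against BJ and -0.25 in BJELM against BJEL, beside medians over all genes of 0.011, -0.017 and 0.029. The arrays of the lines did not overlap for 5 of 7 genes in BJELM against BJ, 5 of 7 in BJEL against BJ and 6 of 7 in BJELM against BJEL, beside 60.5%, 61.2% and 52.8% of all genes. The difference from these shares was not tested.

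**Figure D1:**
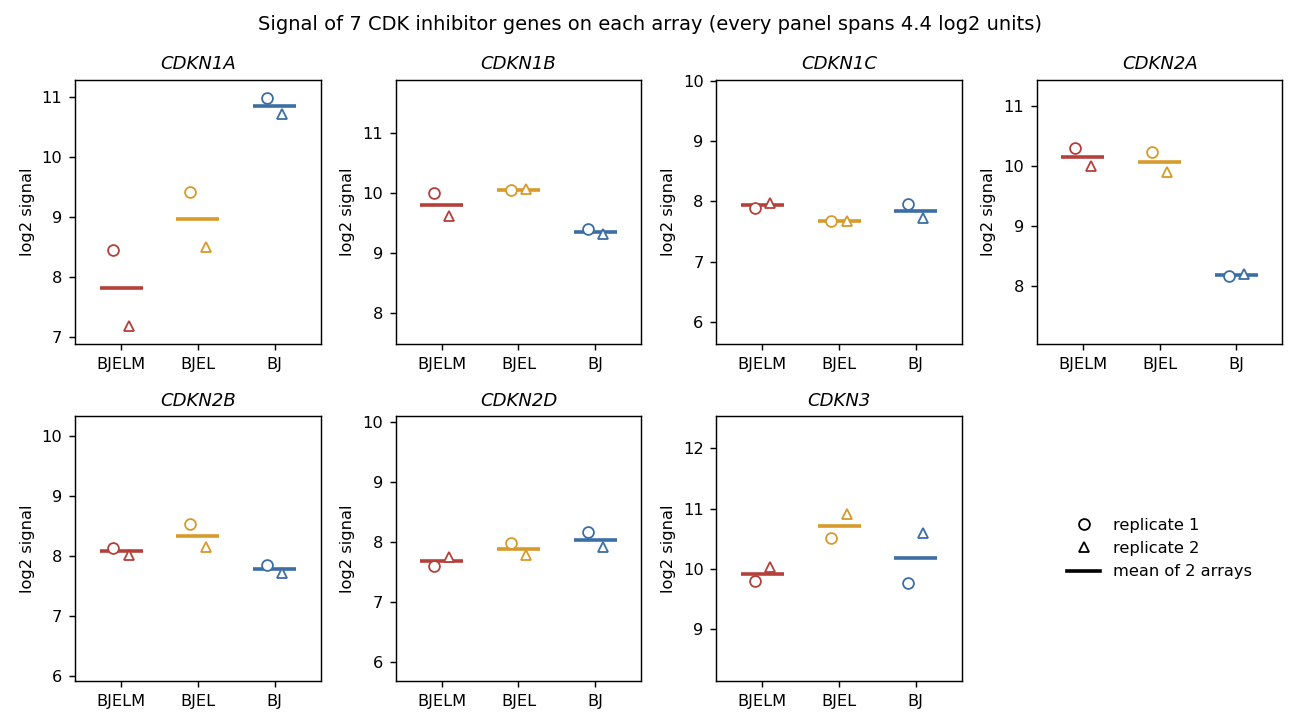
Log2 signal of the 7 measured CDK inhibitor genes (vertical axis, each panel spanning the same number of log2 units) on the arrays labelled BJELM, BJEL and BJ; circles are replicate 1, triangles replicate 2 and bars the mean of 2 arrays. CDKN1A is lowest in BJELM and highest in BJ, CDKN2A is higher in BJELM and BJEL than in BJ, and the line means of each of the other 5 genes lie less than 1 log2 unit apart.

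CDKN1A encodes p21, which binds CDK2 complexes and the replication clamp PCNA. Its signal was 8.45 and 7.20 in BJELM, 9.43 and 8.50 in BJEL, and 10.98 and 10.72 in BJ. Every BJELM array lay below every BJEL array, and every BJEL array below every BJ array. The means were 7.82 ± 0.88 in BJELM, 8.96 ± 0.65 in BJEL and 10.85 ± 0.18 in BJ (SD, n = 2 each). CDKN1A fell in BJELM against BJ by 3.02 ± 0.46 on the log2 scale, 8.13-fold lower, with an adjusted p of 0.0046 and a 95% interval of -4.13 to -1.91. In BJEL against BJ the change was -1.88 ± 0.46, 3.69-fold lower (adjusted p = 0.0379, 95% interval -2.99 to -0.77). This second call was lost when either BJ array or either BJEL array was left out, with adjusted p-values up to 0.173 and changes between -2.34 and -1.42.

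The step between BJEL and BJELM depended on how the replicates were handled for CDKN1A. The change in BJELM against BJEL was -1.14 ± 0.46 with an adjusted p of 0.187 and an interval of -2.25 to -0.030, and the closest arrays of the 2 lines were 0.055 apart. Replicate 2 was lower than replicate 1 in each line, with differences of -1.25 in BJELM, -0.92 in BJEL and -0.26 in BJ. Within replicates BJELM minus BJEL was -0.98 in replicate 1 and -1.31 in replicate 2. With the replicate number as a block the same change had an SE of 0.21 and an adjusted p of 0.00817, which passed both criteria. It also passed without BJELM replicate 1 (-1.77, adjusted p = 0.0491).

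The sequence around the CDKN1A start site, 250 bases before it and 50 after (chr6:36678464-36678763, plus strand, RefSeq on GRCh38.p14), is shown because this gene had the widest range among the members, 3.78 log2 units over the 6 arrays. Capitals mark the SP1 GC box, GGGCGG, searched on both strands.
CDKN1A: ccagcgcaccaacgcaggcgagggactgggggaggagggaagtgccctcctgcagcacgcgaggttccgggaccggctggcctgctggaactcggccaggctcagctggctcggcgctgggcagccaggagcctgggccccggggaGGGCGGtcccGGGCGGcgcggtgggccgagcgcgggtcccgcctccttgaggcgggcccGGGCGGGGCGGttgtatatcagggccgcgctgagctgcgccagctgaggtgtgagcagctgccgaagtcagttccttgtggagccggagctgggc
The window held 4 GC boxes, starting at -104, -94, -45 and -40 from the start site, of which the boxes at -45 and -40 overlap. GC boxes were in 45% of 35116 such windows of annotated genes. None of the E2F letters TTTCCCGC, TTTGGCGC, TTTCGCGC or TTTGCCGC was found in it on either strand, and 3.31% of all windows hold them.

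The other CIP/KIP genes moved little. CDKN1B encodes p27, the inhibitor of cyclin E with CDK2 that is itself marked for degradation by SKP2. Its signal was 10.00 and 9.62 in BJELM, 10.05 and 10.06 in BJEL, and 9.40 and 9.31 in BJ. Both lines with introduced genes lay above BJ on all arrays. The difference was 0.45 ± 0.14 in BJELM against BJ (adjusted p = 0.0540) and 0.70 ± 0.14 in BJEL against BJ (adjusted p = 0.0189), and neither reached 2-fold. BJELM and BJEL were neighbours that did not pass the test, at -0.25 ± 0.14 (adjusted p = 0.331, 95% interval -0.58 to 0.084). In BJEL the p27 transcript was thus above BJ where the p21 transcript was below it.

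CDKN1C encodes p57, an imprinted member of the CIP/KIP family. Its signal was 7.89 and 7.98 in BJELM, 7.67 and 7.68 in BJEL, and 7.96 and 7.72 in BJ. These values span 0.31 log2 units. The BJELM arrays overlapped the BJ arrays, and the BJEL arrays were the lowest. The differences were 0.097 ± 0.11 in BJELM against BJ (adjusted p = 0.613), -0.17 ± 0.11 in BJEL against BJ (adjusted p = 0.355) and 0.27 ± 0.11 in BJELM against BJEL (adjusted p = 0.189). Their 95% intervals were -0.16 to 0.36, -0.43 to 0.091 and 0.0052 to 0.53, so that changes of 2-fold lay outside all of them.

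**Figure D2:**
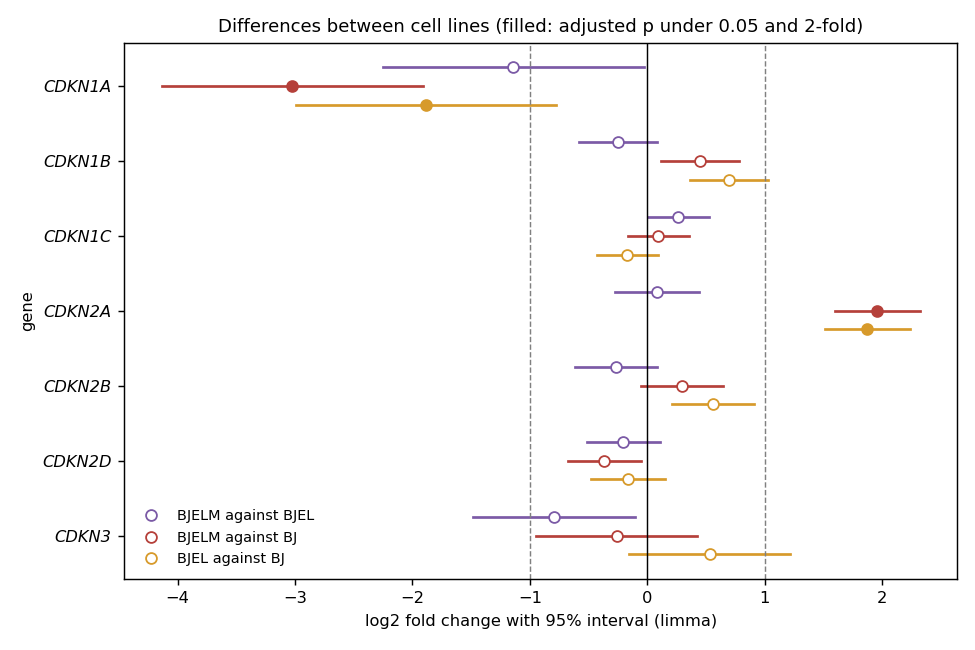
Log2 fold change (horizontal axis) with its 95% interval from limma for each CDK inhibitor gene in BJELM against BJEL, BJELM against BJ and BJEL against BJ; filled points passed an adjusted p of 0.05 and 2-fold, and dashed lines mark 2-fold. Only CDKN1A (-3.02 and -1.88) and CDKN2A (1.96 and 1.88) have filled points, both against BJ.

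CDKN2A was the INK4 gene that rose. The gene makes p16INK4A, which inhibits CDK4 and CDK6, and, from another start site and reading frame, p14ARF, which inhibits MDM2; its probe set is annotated with transcripts of both and does not separate them. The signal was 10.30 and 10.01 in BJELM, 10.24 and 9.91 in BJEL, and 8.18 and 8.21 in BJ. All 4 arrays with introduced genes lay at least 1.69 log2 units above both BJ arrays. The change was 1.96 ± 0.15 in BJELM against BJ, 3.89-fold higher (adjusted p = 0.000499, 95% interval 1.60 to 2.32). In BJEL against BJ it was 1.88 ± 0.15, 3.67-fold higher (adjusted p = 0.00119, 95% interval 1.52 to 2.24). BJELM and BJEL overlapped, with a difference of 0.084 ± 0.15 (adjusted p = 0.788) whose interval of -0.28 to 0.44 does not reach 2-fold. Both calls against BJ held with each of the 6 arrays left out in turn, with changes between 1.82 and 2.11 for BJELM and between 1.71 and 2.04 for BJEL.

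The windows at both CDKN2A start sites are shown because the 2 products start apart, with GC boxes in capitals (chr9:21995275-21995574 for the upstream start, from which ARF is made, and chr9:21974808-21975107 for the p16 start, both on the minus strand, RefSeq on GRCh38.p14).
CDKN2A upstream start: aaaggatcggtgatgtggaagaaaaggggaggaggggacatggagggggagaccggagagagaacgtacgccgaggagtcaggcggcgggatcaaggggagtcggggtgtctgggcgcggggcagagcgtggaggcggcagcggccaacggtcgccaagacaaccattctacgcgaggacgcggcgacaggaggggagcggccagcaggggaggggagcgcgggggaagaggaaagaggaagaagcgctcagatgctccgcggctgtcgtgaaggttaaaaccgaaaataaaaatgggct
CDKN2A p16 start: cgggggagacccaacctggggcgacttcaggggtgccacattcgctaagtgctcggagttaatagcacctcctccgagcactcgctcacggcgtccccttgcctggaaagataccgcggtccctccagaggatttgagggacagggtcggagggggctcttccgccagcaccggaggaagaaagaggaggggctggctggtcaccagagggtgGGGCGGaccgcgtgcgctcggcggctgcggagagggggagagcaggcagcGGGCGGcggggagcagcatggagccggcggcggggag
The window of the upstream start held no GC box and the p16 window held 2, at -37 and +14. Neither held the E2F letters given above, nor the E-box CACGTG, which 7.26% of all windows hold on either strand.

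CDKN2B, the gene next to CDKN2A, encodes p15, an INK4 protein known as a target of TGF-beta signalling. Its signal was 8.13 and 8.02 in BJELM, 8.53 and 8.15 in BJEL, and 7.84 and 7.71 in BJ. The order of the lines was BJEL above BJELM above BJ without overlap, and the closest BJELM and BJEL arrays were 0.016 apart. The difference was 0.30 ± 0.14 in BJELM against BJ (adjusted p = 0.197), 0.56 ± 0.14 in BJEL against BJ (adjusted p = 0.0445, below 2-fold) and -0.26 ± 0.14 in BJELM against BJEL (adjusted p = 0.323). Although the genes are neighbours, the 95% interval for CDKN2B in BJEL against BJ, 0.21 to 0.91, lay below that for CDKN2A, 1.52 to 2.24. A test of the difference between these genes was not run. The window at the CDKN2B start (chr9:22009256-22009555, minus strand, RefSeq on GRCh38.p14) is set beside those of CDKN2A, and held 2 GC boxes, at -134 on the opposite strand, where it reads CCGCCC, and at -78.
CDKN2B: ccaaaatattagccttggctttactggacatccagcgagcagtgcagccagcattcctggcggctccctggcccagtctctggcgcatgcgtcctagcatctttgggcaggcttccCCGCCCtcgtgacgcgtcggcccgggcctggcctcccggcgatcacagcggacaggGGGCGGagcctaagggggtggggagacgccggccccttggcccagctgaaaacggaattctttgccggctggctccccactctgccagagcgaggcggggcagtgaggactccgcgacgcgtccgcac

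None of the other genes listed around the locus on 9p21 was called in the 3 comparisons. MTAP, which encodes an enzyme of methionine salvage, stood at 8.95 and 8.74 in BJELM, 8.44 and 8.15 in BJEL, and 7.93 and 7.86 in BJ. Its difference was 0.95 ± 0.13 in BJELM against BJ (adjusted p = 0.00309), 0.40 ± 0.13 in BJEL against BJ (adjusted p = 0.0883) and 0.55 ± 0.13 in BJELM against BJEL (adjusted p = 0.0468), none of them 2-fold. DMRTA1 differed by 0.44 ± 0.10 in BJELM against BJ (adjusted p = 0.0233) and by -0.027 ± 0.10 in BJEL against BJ (adjusted p = 0.904). CDKN2A-AS1, chosen after its values were seen, lay between 5.43 and 5.56 on all arrays, and CDKN2B-AS1 is not analysed here.

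CDKN2D encodes p19INK4D, an INK4 inhibitor of CDK4 and CDK6. Its signal was 7.60 and 7.74 in BJELM, 7.98 and 7.78 in BJEL, and 8.17 and 7.91 in BJ. The means descended in the order BJ, BJEL and BJELM, but neighbours in that order did not differ beyond their spread. The difference was -0.36 ± 0.13 in BJELM against BJ (adjusted p = 0.0873), -0.16 ± 0.13 in BJEL against BJ (adjusted p = 0.464) and -0.20 ± 0.13 in BJELM against BJEL (adjusted p = 0.400).

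CDKN3, the CDK2 phosphatase, stood at 9.80 and 10.03 in BJELM, 10.52 and 10.91 in BJEL, and 9.76 and 10.60 in BJ. The BJ arrays spanned 0.84 log2 units and overlapped both other lines, whereas the BJELM arrays lay below the BJEL arrays. The difference in BJELM against BJEL was -0.79 ± 0.28 (adjusted p = 0.144, 95% interval -1.48 to -0.11). Replicate 2 was higher than replicate 1 in each line, by 0.23 in BJELM, 0.39 in BJEL and 0.84 in BJ. Within replicates BJELM minus BJEL was -0.72 and -0.87, and with the replicate number as a block the adjusted p was 0.00752, below 2-fold. Against BJ the difference was -0.26 ± 0.28 in BJELM (adjusted p = 0.603) and 0.53 ± 0.28 in BJEL (adjusted p = 0.268). With the block the limma adjusted p was 0.206 in BJELM and 0.0271 in BJEL, below 2-fold.

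**Figure D3:**
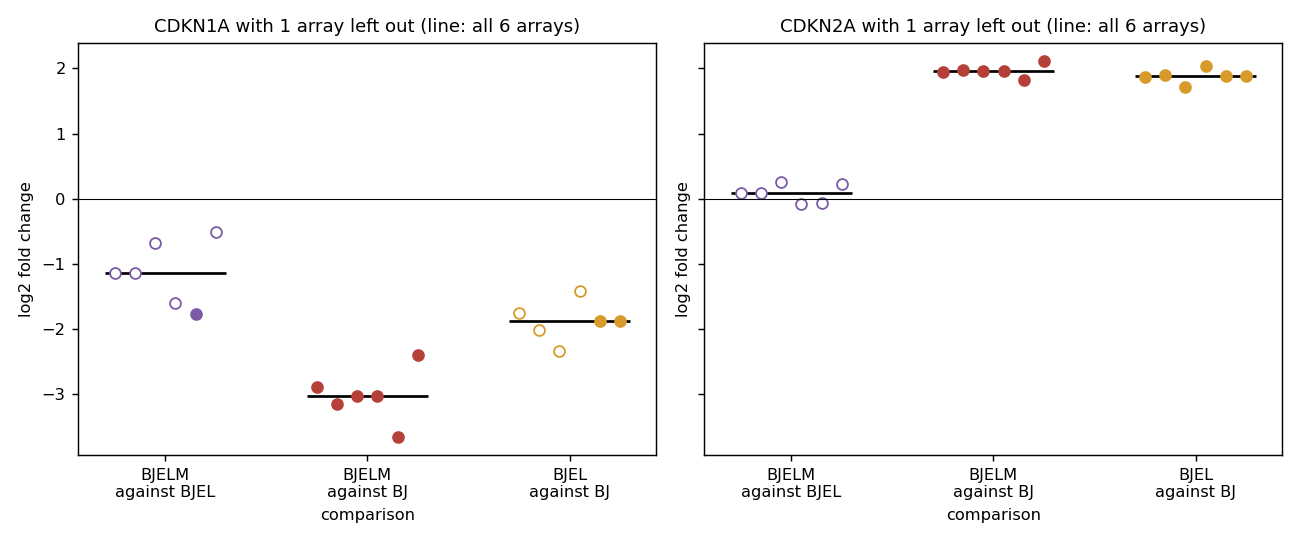
Log2 fold change (vertical axis) of CDKN1A and CDKN2A in the 3 comparisons with 1 of the 6 arrays left out at a time; each point is a fit on 5 arrays, filled where the gene passed an adjusted p of 0.05 and 2-fold, and the bar is the value from all 6 arrays. CDKN2A keeps its calls against BJ in every fit, and CDKN1A in BJEL against BJ keeps it in 2 of 6.

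For the called members, the genes whose pattern over the 6 arrays was most alike were sought by the root mean square difference of log2 signals after each gene was centred on its own mean. Genes chosen this way share the order of lines and replicates by the choice itself, so that likeness is no separate result. For CDKN1A these were SLC16A4, a monocarboxylate transporter family gene (0.224 log2 units), ADAMTS1, a secreted metalloprotease (0.280), and EDA2R, a receptor of the tumor necrosis factor family (0.281). EDA2R stood at 7.81 and 6.73 in BJELM, 8.36 and 7.72 in BJEL, and 9.65 and 9.75 in BJ, with the same descent over the lines and a low replicate 2 in BJELM and BJEL. SLC16A4 stood at 6.99 and 6.43 in BJELM, 8.52 and 7.62 in BJEL, and 9.81 and 9.66 in BJ. ADAMTS1 stood at 9.65 and 8.99 in BJELM, 10.50 and 9.75 in BJEL, and 12.03 and 11.63 in BJ.

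For CDKN2A the most alike genes were GINS3, a subunit of the GINS complex of the replicative helicase (0.0506 log2 units), EME1, a subunit of a structure-specific endonuclease that acts in DNA repair (0.0862), and DTL, the substrate receptor of the CUL4 ubiquitin ligase that marks p21 for degradation (0.101). GINS3 stood at 9.74 and 9.47 in BJELM, 9.71 and 9.42 in BJEL, and 7.58 and 7.57 in BJ. DTL stood at 11.41 and 11.27 in BJELM, 11.50 and 11.29 in BJEL, and 9.30 and 9.53 in BJ. In both, as in CDKN2A, replicate 2 was slightly below replicate 1 in BJELM and BJEL.

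The start-site windows of GINS3 (chr16:58392221-58392520) and DTL (chr1:212035498-212035797), both on the plus strand of GRCh38.p14 from RefSeq, are shown for comparison with the CDKN2A windows above. Capitals mark the E2F letters in both and, in GINS3, also GC boxes and TATAAA.
GINS3: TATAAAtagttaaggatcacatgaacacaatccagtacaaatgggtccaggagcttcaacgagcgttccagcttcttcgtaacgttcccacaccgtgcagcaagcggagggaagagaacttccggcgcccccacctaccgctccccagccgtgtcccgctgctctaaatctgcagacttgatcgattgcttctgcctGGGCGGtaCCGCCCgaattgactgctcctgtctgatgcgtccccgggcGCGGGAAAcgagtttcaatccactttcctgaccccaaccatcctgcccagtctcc
DTL: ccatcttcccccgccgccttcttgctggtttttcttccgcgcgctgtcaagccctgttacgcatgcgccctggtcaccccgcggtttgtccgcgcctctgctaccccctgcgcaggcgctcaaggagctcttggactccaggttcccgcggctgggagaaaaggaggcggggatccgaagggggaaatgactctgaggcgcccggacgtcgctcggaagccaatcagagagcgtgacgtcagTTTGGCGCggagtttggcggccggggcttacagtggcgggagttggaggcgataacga
GINS3 held TTTCCCGC on the minus strand at -5 and DTL held TTTGGCGC at -8, whereas the EME1 window and both CDKN2A windows held none of the E2F letters. The letters were not particular to this pattern. SLC16A4, the gene most like CDKN1A, held TTTGCCGC on the minus strand at -121, and the EDA2R windows held none. A match of letters is no measured binding, and no match says nothing of the factor.

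**Figure D4:**
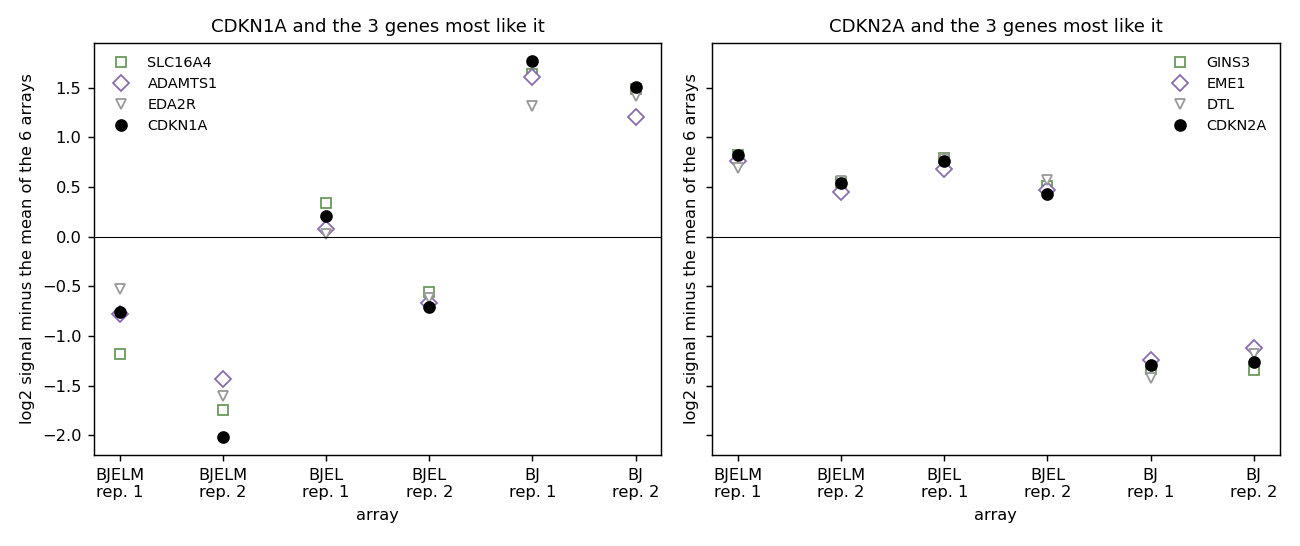
Log2 signal minus the mean of the 6 arrays (vertical axis) on each array, for CDKN1A and CDKN2A (filled) and the 3 genes most like each (open symbols). The CDKN1A group is lowest in BJELM and highest in BJ, with a low replicate 2 in BJELM and BJEL, and the CDKN2A group separates BJELM and BJEL from BJ.

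The cyclins and kinases that the inhibitors bind were measured in 12 of 12 genes. In BJELM against BJ 2 rose and 0 fell, in BJEL against BJ 3 rose and 1 fell, and in BJELM against BJEL 1 rose and 0 fell, with median changes of 0.72, 0.37 and 0.099. Of all genes, 8.79%, 5.18% and 2.68% were called in these comparisons, and the lists below have the same background. Differences of the lists from these shares were not tested. CCND2, encoding cyclin D2, stood at 10.75 and 11.08 in BJELM, against 5.16 and 5.33 in BJEL and 5.95 and 5.53 in BJ, a rise of 5.68 ± 0.18 against BJEL (adjusted p = 0.00024) and of 5.18 ± 0.18 against BJ (adjusted p = 7.46e-05). CCND1, encoding cyclin D1, went the other way, at 10.56 and 10.82 in BJELM and 10.45 and 10.50 in BJEL, against 11.72 and 11.61 in BJ. It fell in BJEL by 1.19 ± 0.11 (adjusted p = 0.00186), and in BJELM the difference of -0.98 ± 0.11 missed 2-fold (adjusted p = 0.00175). CDK2, the main partner of p21 and p27, rose in BJEL by 1.05 ± 0.10 (adjusted p = 0.00177). In BJELM against BJ its difference of 0.71 ± 0.10 missed 2-fold (limma adjusted p = 0.00323). CCNE2, encoding cyclin E2, rose in BJEL by 1.51 ± 0.24 and CDK1 by 1.41 ± 0.28, and both calls were lost without BJEL replicate 2, that of CDK1 also without BJ replicate 1 or BJEL replicate 1. CDK1 also rose in BJELM against BJ, by 1.01 ± 0.28 (adjusted p = 0.0417), and this call stood only in the fit without BJ replicate 2 among the 6 fits with an array left out.

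Of 13 RB pocket protein and E2F genes, all measured, 3 rose and 0 fell in BJELM against BJ, 3 rose and 0 fell in BJEL against BJ, and 1 rose and 1 fell in BJELM against BJEL, with medians of 0.39, 0.53 and -0.065. RBL1, encoding the RB relative p107, rose by 1.31 ± 0.12 in BJELM and by 1.80 ± 0.12 in BJEL against BJ. E2F7, a repressor E2F, rose by 1.22 ± 0.20 and 1.65 ± 0.20 in the same comparisons, the BJELM call being lost without BJ replicate 1. E2F5 rose in BJELM, by 2.19 ± 0.10 against BJ and 1.65 ± 0.10 against BJEL. E2F8 rose in BJEL against BJ by 1.34 ± 0.16 and fell in BJELM against BJEL by 1.22 ± 0.16, the fall being lost without BJEL replicate 2.

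Of 11 genes of the ubiquitin ligases that degrade CIP/KIP proteins, only DTL was called, and it rose by 1.93 ± 0.13 in BJELM (adjusted p = 0.00034) and by 1.98 ± 0.13 in BJEL (adjusted p = 0.000734) against BJ. In BJELM against BJEL 0 of 11 were called by limma, with 5 at an unadjusted p under 0.05, beside 25.4% of all genes. SKP2, the F-box protein that marks p27, was higher in BJEL than in BJ by 0.70 ± 0.10 (adjusted p = 0.00595) and differed by -0.44 ± 0.10 in BJELM against BJEL (adjusted p = 0.0411), under 2-fold in each case. CKS1B, its cofactor, differed by -0.11 ± 0.28 in BJELM against BJEL (adjusted p = 0.854). CUL4B, of the CUL4 ligase, was lower in BJELM than in BJ by 0.94 ± 0.09 (limma adjusted p = 0.000921). Against BJEL it was lower by 0.64 ± 0.09 (limma adjusted p = 0.0105), and both missed 2-fold. CUL4A differed by 0.14 ± 0.15 in BJELM against BJ (limma adjusted p = 0.611).

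The genes of the p53 arm, which lies upstream of CDKN1A, were measured for 12 of 15. Here 0 rose and 5 fell in BJELM against BJ, and 0 rose and 4 fell in BJEL against BJ. In BJELM against BJEL 0 of 12 were called by limma, with 3 at an unadjusted p under 0.05, beside 25.4% of all genes. The medians were -0.73, -0.65 and -0.038 in this order of comparisons. ZMAT3, a p53 target encoding an RNA-binding protein, stood at 8.24 and 8.08 in BJELM and 7.73 and 7.62 in BJEL, against 10.29 and 10.17 in BJ, and fell by 2.08 ± 0.10 and 2.56 ± 0.10 in the comparisons with BJ. TP53INP1, a p53-induced nuclear protein, fell by 1.97 ± 0.29 in BJELM and by 1.60 ± 0.29 in BJEL. SESN1, a stress-induced sestrin, fell by 1.23 ± 0.18 and 1.24 ± 0.18, and RRM2B, a p53-induced ribonucleotide reductase subunit, by 1.35 ± 0.23 and 1.17 ± 0.23. In BJEL the call of TP53INP1 did not hold without BJ replicate 1 or BJEL replicate 2, and the RRM2B call without any of the BJ or BJEL arrays. MDM2, the ubiquitin ligase of p53, fell in BJELM against BJ by 1.03 ± 0.15 (adjusted p = 0.00434), and did not pass 2-fold after quantile or median scaling or without BJ replicate 2 or BJELM replicate 2. In BJEL against BJ its difference of -0.64 ± 0.15 was under 2-fold (limma adjusted p = 0.0367). In BJELM against BJEL, where CDKN1A differed by -1.14, MDM2 differed by -0.39 ± 0.15 (adjusted p = 0.176) and CCNG1, encoding cyclin G1, by 0.12 ± 0.09 (adjusted p = 0.473). ZMAT3, the only 1 of the 12 with a limma adjusted p under 0.05 there, was higher by 0.49 ± 0.10 (adjusted p = 0.0337), under 2-fold. How the CDKN1A difference relates to the p53 arm was not tested.

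Regulators of the INK4 locus were measured for 20 of 24 genes. In BJELM against BJ 0 rose and 3 fell, and in BJEL against BJ 1 rose and 2 fell. In BJELM against BJEL 0 of 20 were called by limma, with 4 at an unadjusted p under 0.05, beside 25.4% of all genes. The medians were -0.23, -0.18 and -0.0053 in this order of comparisons. ID1, which blocks the activation of p16 by ETS factors, stood at 10.19 and 10.31 in BJELM and 10.17 and 10.27 in BJEL, against 11.45 and 11.35 in BJ. It fell by 1.16 ± 0.09 in BJELM and by 1.19 ± 0.09 in BJEL, and differed by 0.028 ± 0.094 in BJELM against BJEL (adjusted p = 0.897). ID3 fell by 1.47 ± 0.12 and 1.20 ± 0.12. ID2 fell by 1.23 ± 0.12 in BJELM, and in BJEL its difference of -0.93 ± 0.12 missed 2-fold (limma adjusted p = 0.00507). EZH2, the methyltransferase of the Polycomb complex that represses the locus, rose in BJEL by 1.07 ± 0.14 (adjusted p = 0.00469), short of 2-fold without BJ replicate 1 or after quantile scaling. In BJELM against BJ its difference of 0.79 ± 0.14 missed 2-fold (limma adjusted p = 0.0079). SUZ12 of the same complex was higher than in BJ by 0.95 ± 0.15 in BJELM and by 0.89 ± 0.15 in BJEL, under 2-fold, and differed by 0.065 ± 0.15 in BJELM against BJEL (adjusted p = 0.847).

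Of 19 FOXO, SMAD and MIZ1 genes, factors and signals that act on the CIP/KIP and p15 promoters, 1 rose and 1 fell in BJELM against BJ. In BJEL against BJ 1 rose and 2 fell. In BJELM against BJEL 0 of 19 were called by limma, with 5 at an unadjusted p under 0.05, beside 25.4% of all genes. The medians were -0.17, -0.21 and -0.058. TGFB2, a TGF-beta ligand, rose by 1.53 ± 0.22 in BJELM and by 1.59 ± 0.22 in BJEL. TGFB1, another ligand, fell in BJEL by 1.25 ± 0.15 (adjusted p = 0.00343). In BJELM against BJ its difference of -0.55 ± 0.15 was under 2-fold (limma adjusted p = 0.0354). SMAD7, the inhibitory SMAD, fell by 1.03 ± 0.16 in BJELM and by 1.11 ± 0.16 in BJEL, and the first of these calls was lost without BJ replicate 2 or BJELM replicate 1 and with median scaling, the other without BJEL replicate 1. SMAD4, their shared mediator, differed by -0.20 ± 0.08 in BJELM against BJEL (adjusted p = 0.206), and TGFB2 by -0.058 ± 0.22 (adjusted p = 0.913).

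Mitotic genes of the DREAM group, which p21 represses through the pocket proteins, were listed with LIN subunits of the complex and measured in 16 of 16. In BJELM against BJ 3 rose and 0 fell, and in BJEL against BJ 7 rose and 0 fell, with medians of 0.63 and 0.89. In BJELM against BJEL 0 of 16 were called by limma, with 8 at an unadjusted p under 0.05, beside 25.4% of all genes. The median there was -0.38. LIN9, a subunit of the complex itself, rose by 1.37 ± 0.16 in BJELM and by 1.63 ± 0.16 in BJEL against BJ. MYBL2, encoding B-MYB, rose by 1.15 ± 0.20 and 1.55 ± 0.20, the BJELM call being lost without BJELM replicate 1, and AURKB, a mitotic kinase, by 1.24 ± 0.15 and 1.31 ± 0.15. CDC25C, the phosphatase that activates CDK1, rose in BJEL by 1.31 ± 0.17. In BJELM against BJ its difference of 0.86 ± 0.17 missed 2-fold (limma adjusted p = 0.0125). In BJELM against BJEL, PLK1, the polo-like kinase of mitosis, differed by -0.12 ± 0.11 (adjusted p = 0.573) and TOP2A, a topoisomerase of dividing cells, by -0.37 ± 0.20 (adjusted p = 0.331). By its medians the list stood between BJ and BJEL on the arrays labelled BJELM. How the list relates to the CDKN1A signal was not tested. A test of the list was not run.

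**Figure D5:**
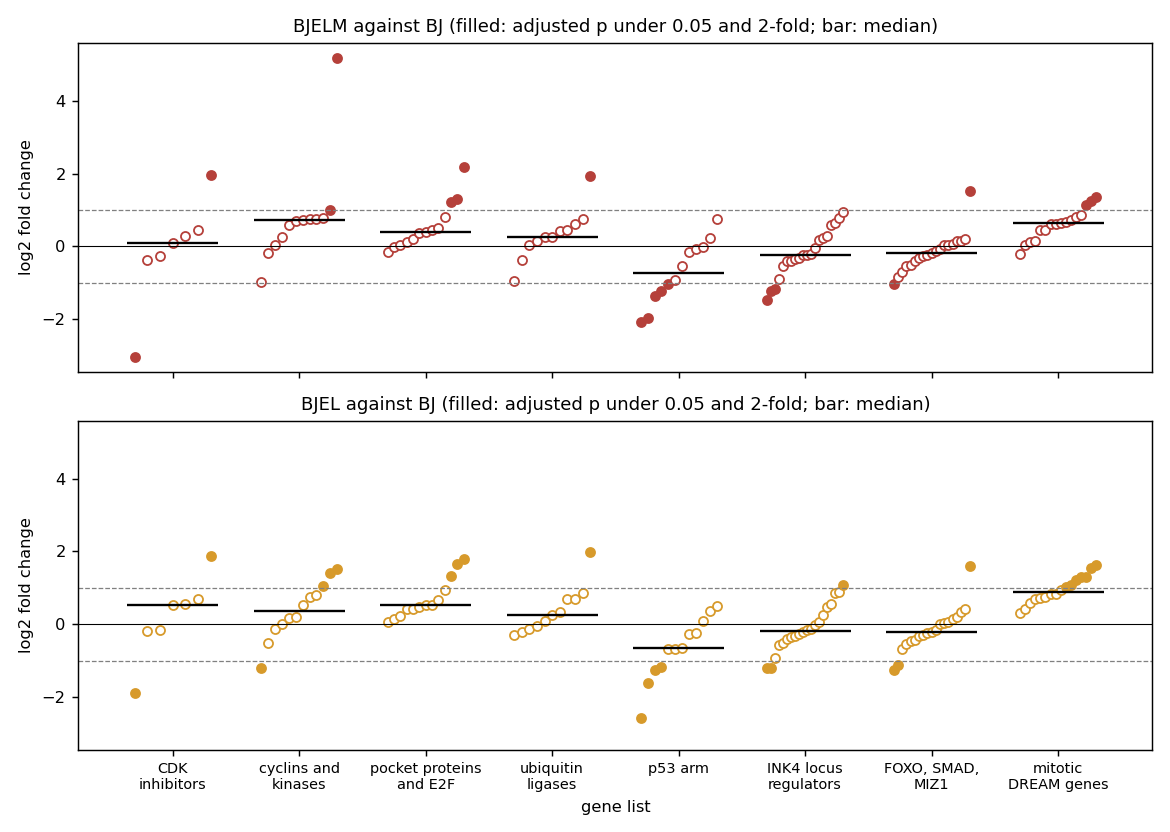
Log2 fold change (vertical axis) of every measured gene of the CDK inhibitors and 7 partner and regulator lists in BJELM against BJ (top) and BJEL against BJ (bottom); filled points passed an adjusted p of 0.05 and 2-fold, short bars are list medians and dashed lines mark 2-fold. The p53 arm has 5 and 4 filled points, all below 0, the mitotic list has 3 and 7, all above 0, and the highest point at 5.18 is CCND2 in BJELM.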

How the data were processed

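RNA of the 3 lines was hybridised to Affymetrix Gene 1.0 ST arrays, 2 for each. The authors made the deposited log2 signals with RMA in Affymetrix Expression Console 1.3.1 at default settings, which subtracts background, equalises the arrays and summarises each probe set, and can compress changes of dim probe sets. The build behind the probe annotation is not given in the sources used here. Of 33297 probe sets, 19460 have a single symbol, 1754 have several and 12083 are not listed; 18417 genes were compared. Changes were estimated in limma 3.58.1 (R 4.3.3) from 1 fit of the 6 arrays, with a mean for every line and no block, and two-sided p-values were adjusted by Benjamini-Hochberg over all genes, with 3 residual degrees of freedom and 3.13 from the prior. The code was tested on simulated data. Arrays give no count depth, so precision rests on their number.

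Differences between replicates 1 and 2 correlated across genes by 0.448 (BJEL with BJ), 0.481 (BJELM with BJ) and 0.553 (BJELM with BJEL). Replicate numbers were therefore taken to pair the arrays in the blocked alternative and in differences within replicates, although the labels name no shared day. The main fit did not use this pairing. For CDKN1A in BJELM against BJEL the limma adjusted p was 0.187 without the block and 0.00817 with it. The CDK inhibitors and gene lists were chosen with earlier results of these data known. Other genes were named by rule: TERT and MYC, up to 4 called members of a list with the largest change or the 2 with the highest mean where none was called, the 3 genes most like a called inhibitor, and the 9p21 genes. MDM2 against BJ, CD68, CCND1 in BJELM, SKP2 and SUZ12 against BJ, and ZMAT3 in BJELM against BJEL were named after their values were seen. So were CUL4A and CUL4B, and, against BJ, ID2 in BJEL and CDK2, EZH2, CDC25C and TGFB1 in BJELM. Alternatives were arrays left out in turn, a fit of 2 lines, the replicate block, other scalings, an intensity trend, dim-gene filters, other probe set rules and thresholds, and the methods' t-test in its plain form. RefSeq gave start-site windows for 7 of the 8 inhibitor genes.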

Additional observations from a re-analysis of the deposited data

Results flagged for a closer look

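CDKN1C and CDKN3 were singled out because the arrays of BJELM and BJEL lay on opposite sides of the BJ mean. For CDKN1C the BJELM arrays were 0.051 and 0.142 above the BJ mean and the BJEL arrays -0.173 and -0.165 from it, a difference in change of 0.266 (limma adjusted p = 0.189). For CDKN3 the BJELM arrays were -0.378 and -0.144 from the BJ mean and the BJEL arrays 0.338 and 0.727 above it, a difference of -0.794 (limma adjusted p = 0.144). Neither difference passed the test, and the BJ arrays of both genes overlapped at least 1 of the other lines. With 2 arrays in a group no outlying array can be named.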

How the results depend on the processing

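Of 420 values of single inhibitor genes under alternatives, 399 kept their direction and their side of the threshold, 12 lost and 5 gained a call, and 4 turned their direction, all with an array left out. Without single arrays, CDKN1C in BJELM against BJ ranged from -0.024 to 0.22, CDKN3 in BJELM against BJ from -0.68 to 0.157, and CDKN2A in BJELM against BJEL from -0.082 to 0.249, none of them called. The number of inhibitor genes called in BJELM against BJ was 2, and 1 by the plain form of the methods' t-test unadjusted and 0 after Benjamini-Hochberg. In BJEL against BJ it was 2, between 1 and 2 with single arrays left out, 4 with no fold minimum, 1 at an adjusted p under 0.01, and 0 by the methods' t-test, unadjusted or adjusted. In BJELM against BJEL it was 0, between 0 and 1 with single arrays left out, where the gene was CDKN1A without BJELM replicate 1, and 1 with the replicate block, again CDKN1A (-1.14, adjusted p = 0.00817). The replicate block changed no other call. The t-test here was the plain form with unequal variances, and the paper used a modified form and names no adjustment. Unadjusted, the plain form called 880 of 18417 genes in BJELM against BJ, 465 in BJEL against BJ and 231 in BJELM against BJEL. After Benjamini-Hochberg it called 0 in each comparison. These counts do not apply to the paper's own test. With 2 arrays per line, changes well under 2-fold, as in CDKN2B and CDKN2D, lie near the limit of these tests, and a missed threshold does not show equal levels.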
